A study of Mus musculus with 3 samples.

Results

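Osteogenic LepR+ marrow cells were taken as the stromal cells that carried the chemokine of LepR+ cells together with several genes of the bone-forming lineage. A cell was counted among them if it had at least 10 UMIs (unique molecular identifiers, each standing for 1 captured transcript) of Cxcl12, no UMI of the endothelial cadherin Cdh5, and at least 1 UMI of 3 or more of the 5 genes Postn, Mmp13, Alpl, Kcnk2 and Slitrk6. These counts chose the cells, so the levels of the 5 genes, and of Cxcl12 and Cdh5, describe the choice and are not findings. The rule found 268 cells among 24081 cells kept, with 108 at 2 mo of age, 79 at 12 mo and 81 at 24 mo. They were compared with 3883 other LepR+ cells of the same libraries, which had at least 10 UMIs of Cxcl12, at least 1 UMI of Lepr and none of Cdh5 (1539, 530 and 1814 cells).

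The study sorted marrow stromal cells without CD45, CD71 or other hematopoietic lineage markers from crushed, enzymatically dissociated femurs and tibias of untreated mice, and sequenced them with Chromium 3' v3.1 chemistry. Its 3 groups were mice aged 2, 12 and 24 mo, each a single library from 3 pooled mice whose cells carry no mark of the animal. The labels give neither strain nor sex for these libraries. The methods place the study's mouse lines on a C57BL/Ka background and state that both males and females were aged. No age had a replicate library, so ages were not tested against each other and no p value is given, and cells of 1 library are not replicates. All intervals are exact 95% intervals (Poisson for levels, conditional binomial for ratios, Clopper-Pearson for shares) that cover counting error only.

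LepR+ cells are perivascular stromal cells that surround marrow sinusoids and arterioles and secrete the stem cell factor and Cxcl12 on which hematopoietic stem cells depend. They are also the main adult source of new osteoblasts and of marrow adipocytes, and some of them express bone genes while still lying in the marrow. Bone formation runs from transcription factors such as Runx2 and Sp7, through alkaline phosphatase and osteopontin, to the type I collagen and osteocalcin of mature osteoblasts. Osteolectin, the product of Clec11a, is a growth factor that promotes this differentiation.

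RUNX2 binds a short motif that is well known from the promoters of bone genes, and AP-1 factors such as Fos and Jun act on the promoter of the collagenase gene Mmp13. The promoters of 4 genes that the results below turn on are therefore shown, as the 250 bases before the transcription start from RefSeq on GRCm38.p6, written 5′ to 3′ on the gene's strand. Capitals mark matches to TGTGGT on either strand, and to TGANTCA for AP-1. Mmp13 lies on the plus strand (chr9:7272264-7272513), as does Spp1 (chr5:104434861-104435110), whereas Bglap (chr3:88384467-88384716) and Clec11a (chr7:44306960-44307209) lie on the minus strand.
Mmp13: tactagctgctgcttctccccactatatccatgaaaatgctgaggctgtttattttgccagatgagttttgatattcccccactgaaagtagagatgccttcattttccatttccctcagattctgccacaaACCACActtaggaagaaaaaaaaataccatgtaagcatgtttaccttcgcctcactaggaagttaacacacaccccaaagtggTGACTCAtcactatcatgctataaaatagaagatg
Spp1: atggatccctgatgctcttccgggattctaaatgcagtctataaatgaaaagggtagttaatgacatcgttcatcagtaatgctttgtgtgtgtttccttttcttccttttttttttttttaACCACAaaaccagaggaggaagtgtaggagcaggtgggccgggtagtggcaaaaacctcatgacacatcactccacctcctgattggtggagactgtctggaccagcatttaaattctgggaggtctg
Bglap: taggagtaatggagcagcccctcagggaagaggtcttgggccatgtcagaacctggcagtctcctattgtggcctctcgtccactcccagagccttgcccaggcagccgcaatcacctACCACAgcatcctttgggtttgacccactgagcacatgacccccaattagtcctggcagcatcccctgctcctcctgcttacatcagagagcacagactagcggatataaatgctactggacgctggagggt
Clec11a: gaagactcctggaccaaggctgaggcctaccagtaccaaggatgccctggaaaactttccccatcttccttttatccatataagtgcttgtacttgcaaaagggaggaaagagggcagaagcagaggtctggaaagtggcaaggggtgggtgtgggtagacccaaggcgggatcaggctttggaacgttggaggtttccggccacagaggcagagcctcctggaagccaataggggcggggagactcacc

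The letters TGTGGT stood on the reverse strand in Mmp13, Spp1 and Bglap, beginning 118, 128 and 132 bases before the start, and Mmp13 also held TGANTCA 35 bases before it. Clec11a held neither set of letters in this window, and neither did Ibsp or Wif1, the other 2 of 6 promoters looked at. Of all 32817 RefSeq promoter windows, 14% held TGTGGT and 6.75% held TGANTCA. Of 258 windows of the genes found higher in osteogenic LepR+ cells below (176 of 245 genes matched), 8.91% held TGTGGT, against 9.81% of the windows of all genes tested. A match is a description of letters, and binding was not measured.

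The libraries differed in depth and in their mix of mice. The median osteogenic LepR+ cell had 6295 UMIs at 2 mo, 8649 at 12 mo and 4744 at 24 mo, against 4847, 5564.5 and 4588 in the other LepR+ cells, and their summed counts were 648130, 668262 and 459157 UMIs. The mitochondrial share of the median osteogenic cell was 3.21%, 4.54% and 3.23%, against 2.58%, 3.00% and 2.84% in the other LepR+ cells. Kept cells of the 2 and 12 mo libraries shared 12 barcodes, those of the 2 and 24 mo libraries 12 and those of the 12 and 24 mo libraries 21. UMIs of 2 or more of 7 blood genes, a sign of doublets, were found in 0, 1 and 2 of the osteogenic cells. Each library held cells with Xist and cells with Y-linked transcripts, which must come from different mice. Of the osteogenic cells with either, 10.98%, 21.1% and 18.8% had Xist, against 11.3%, 53.9% and 13.3% of the other LepR+ cells, so the 12 mo comparison cells stand apart. Hemoglobin UMIs made up 1.14%, 0.261% and 2.51% of all UMIs in osteogenic cells and 5.50%, 0.952% and 12.3% in the others, and most of the surplus lay in few cells: 36, 6 and 50 of the other LepR+ cells, and 0, 0 and 2 of the osteogenic ones, had 5% or more.

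The bone markers Spp1 and Clec11a, which the rule did not use, were found in the cells of each library, and the levels of the genes of the rule describe only the choice. Levels are given as CPM, the usual scaled counts, taken from the UMIs of a gene summed over the cells of a group and divided by all UMIs of that group. Mmp13, a collagenase of bone remodelling, was at 2043, 6845 and 3870 CPM at 2, 12 and 24 mo and had a UMI in 101 of 108, 79 of 79 and 81 of 81 cells. Alpl, the alkaline phosphatase that frees phosphate for mineral, was at 614, 1194 and 540 CPM, and the potassium channel gene Kcnk2 at 356, 394 and 342 CPM. Mmp13 and Alpl were present in nearly all cells of each library, and Kcnk2 in 96 of 108, 68 of 79 and 58 of 81. The others of the rule were uneven: Slitrk6 was found in 36, 25 and 28 cells, and Postn, which encodes the matrix protein periostin, in 5, 49 and 32. Spp1 had a UMI in 80.6%, 89.9% and 85.2% of cells and Clec11a in 45.4%, 78.5% and 53.1%. In blood cells of the same libraries (medians of 9967, 19185.5 and 16040 UMIs per cell) Spp1 had a UMI in 5.49%, 5.75% and 14.7% of cells and Clec11a in 1.10%, 0.575% and 0.699%. After thinning each cell to 2000 UMIs, Spp1 was found in 65.1%, 80.8% and 81.3% of osteogenic cells and 1.22%, 1.83% and 4.44% of blood cells. The other LepR+ cells had it in 47.6%, 25.7% and 31.2% of cells. Clec11a was then found in 19.8%, 43.6% and 34.7% of osteogenic cells and 11.9%, 19.7% and 12.0% of the other LepR+ cells. Its 2 mo intervals overlapped (12.7 to 28.7 and 10.3 to 13.7).

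Lepr had a UMI in 91 of 108, 73 of 79 and 60 of 81 osteogenic cells, although the rule did not ask for it. Blood cells were chosen to have no Lepr and so give no background for it. The level of Lepr in osteogenic cells was 855, 492 and 529 CPM. It was 1075, 1478 and 1228 CPM in the other LepR+ cells, which were chosen to have it. Cxcl12, which both groups had to carry, was at 23875, 11313 and 12203 CPM, with medians of 148, 81 and 54 UMIs per cell, far above the limit of 10. Near that limit stood 4, 5 and 10 osteogenic cells with 10 to 14 UMIs of Cxcl12, and just outside it 13, 5 and 9 cells with 5 to 9 UMIs and 3 or more of the 5 genes. A further 30, 12 and 20 such cells had 0 to 4. On the other threshold, 89, 32 and 55 osteogenic cells had exactly 3 of the 5 genes, and 240, 61 and 189 cells with enough Cxcl12 had 2.

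Osteogenic cells were the largest share of the Cxcl12-carrying cells at 12 mo and the smallest at 24 mo. Cells with Y-linked transcripts showed this order, and the shares among cells with Xist lay within each other's intervals. They made up 5.90% of the cells with 10 or more UMIs of Cxcl12 and no Cdh5 at 2 mo (108 of 1831, 95% CI 4.86 to 7.08), 11.9% at 12 mo (79 of 665, 9.52 to 14.6) and 3.89% at 24 mo (81 of 2081, 3.10 to 4.81). Among cells with Y-linked UMIs and no Xist the shares were 7.34% (73 of 995), 21.9% (56 of 256) and 4.75% (52 of 1094). Where Xist was found without Y-linked UMIs they were 7.44% (9 of 121, 3.46 to 13.7), 5.95% (15 of 252, 3.37 to 9.63) and 7.14% (12 of 168, 3.75 to 12.1). The difference between these kinds of cell was not tested. Mice and ages cannot be told apart here, since each library holds 3 animals. After thinning to 2000 UMIs the shares were 2.60%, 8.08% and 2.17%, and the 2 and 24 mo intervals overlapped (1.89 to 3.49 and 1.56 to 2.95). The 12 mo share stayed the highest after thinning to 4000 UMIs (4.68%, 13.5% and 2.65%) and with Postn left out of the rule (5.79%, 10.7% and 3.46%).

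**Figure D1:**
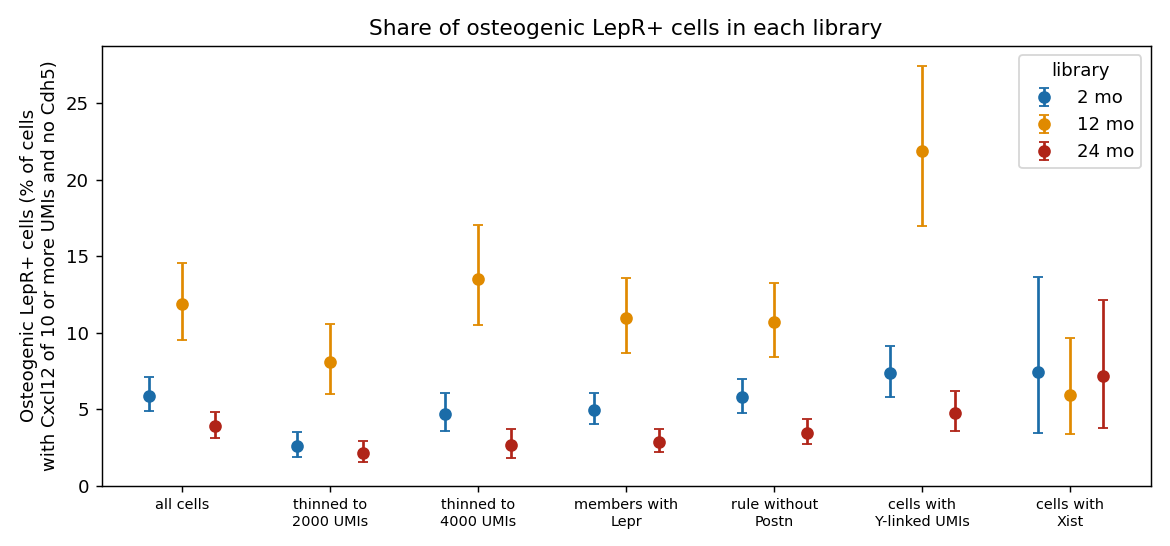
Share of osteogenic LepR+ cells among cells with 10 or more Cxcl12 UMIs and no Cdh5 (vertical axis, percent) in each library, for all cells and under 6 other ways of counting them (horizontal axis). Points are shares and bars are exact 95% intervals. The 12 mo library (orange) is highest at 11.9% for all cells and at 21.9% for cells with Y-linked UMIs, but not for cells with Xist, where it is at 5.95%.

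Of 6966 genes with a mean of 20 CPM or more over the 6 sums, 245 (3.52%) were at least 1.5-fold higher in osteogenic cells than in the other LepR+ cells in all 3 libraries, and 145 (2.08%) were at least 1.5-fold lower. Within single libraries 10.2%, 13.3% and 14.3% of genes were higher by this fold at 2, 12 and 24 mo, and 6.24%, 12.8% and 8.41% were lower. The median log2 ratio of all genes tested was 0.10, 0.03 and 0.14. With edgeR's TMM factors these medians moved by -0.12, -0.04 and -0.16, and the counts became 193 higher and 198 lower. Since the cells were picked on these counts, no test was made and each ratio is a description.

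Several transcription factors of osteoblast development were higher in osteogenic cells. Of 16 listed, 11 passed the filter on low values, and in all 3 libraries 6 of these were higher and none lower, with median log2 ratios of 0.67, 1.65 and 0.90 for the list. Sp7 (osterix), which commits cells to the osteoblast lineage, was at 160, 163 and 95.8 CPM at 2, 12 and 24 mo, against 53.5, 34.2 and 22.9 CPM in the other LepR+ cells. The ratios were 3.00 (95% CI 2.40 to 3.72), 4.77 (3.63 to 6.27) and 4.19 (2.97 to 5.80), and the groups did not overlap in any pair of libraries. Osteoblasts of the 3 libraries together, 65 cells taken by UMIs of Ibsp and Bglap and few of Cxcl12, had Sp7 at 179 CPM. By library they had it at 175, 153 and 213 CPM. This osteoblast group also held chondrocyte (9429 CPM) and erythroid (69664 CPM) markers, so it is not a pure reference.

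The homeobox genes Dlx5 and Dlx6, which act early in the lineage, were higher too. Dlx5 was at 194, 221 and 181 CPM against 85.8, 57.6 and 52.4 CPM, and Dlx6 at 35.5, 70.3 and 52.3 CPM against 17.4, 12.6 and 10.9 CPM. Mef2c, which is active in osteocytes and in chondrocytes, was 3.27-fold (2.70 to 3.95), 6.15-fold (5.12 to 7.40) and 5.66-fold (4.67 to 6.82) the level in the other cells. Also called was the zinc finger gene Zfp521, at 27.8, 34.4 and 19.6 CPM against 17.4, 19.7 and 10.5 CPM, which lost the call with TMM factors. Runx2, the factor that opens the lineage, was high in both groups, at 475, 633 and 542 CPM against 335, 315 and 336 CPM. Its ratio of 1.42 (1.26 to 1.60) at 2 mo was under the limit of 1.5, and those at 12 and 24 mo were 2.01 (1.79 to 2.26) and 1.61 (1.41 to 1.83).

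Bone matrix genes showed both the largest contrasts and the widest spread among libraries. Of 30 listed, 19 were tested, 10 were higher in all 3 libraries and none was lower, with medians of 0.65, 1.36 and 0.88 on the log2 scale. Spp1, which encodes osteopontin, was at 2706, 17743 and 16607 CPM, against 1100, 981 and 779 CPM in the other LepR+ cells. The ratio was 2.46 (2.34 to 2.59) at 2 mo and 18.1 (17.4 to 18.8) and 21.3 (20.7 to 22.0) in the older libraries. Osteoblasts of the same libraries had 15584, 23622 and 29551 CPM at 2, 12 and 24 mo. In osteogenic cells 1 cell held 2162 of 11857 Spp1 UMIs at 12 mo and 1 held 1861 of 7625 at 24 mo. The intervals do not cover this spread among cells.

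Type I collagen stayed far from the osteoblast level. Col1a1, which encodes its alpha 1 chain, was at 378, 1517 and 749 CPM in osteogenic cells and 77182 CPM in osteoblasts, and the other LepR+ cells had 165, 366 and 188 CPM. Col1a2, the other chain, was at 1552, 2755 and 1538 CPM against 1433, 1271 and 892 CPM, and its 2 mo ratio of 1.08 (1.01 to 1.16) kept it out of the count. Both chains were highest at 12 mo in osteogenic cells. Since the 12 mo comparison cells were rich in Xist, the list was also summed by kind of cell. Its sum was 17154, 38840 and 35274 CPM in osteogenic cells with Y-linked UMIs against 14065, 10194 and 9158 CPM in the other LepR+ cells, and 20699, 21919 and 17597 CPM against 12718, 11629 and 10735 CPM in cells with Xist.

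Osteocalcin, the hallmark of mature osteoblasts, was low in number but present. Bglap was at 61.7, 349 and 131 CPM, against 29.2, 3.08 and 4.53 CPM in the other LepR+ cells and 33970 CPM in osteoblasts, and was found in 27, 44 and 16 osteogenic cells. Its neighbor Bglap2 had 46.3, 371 and 139 CPM against 15.8, 4.31 and 2.17 CPM. The near-identical sequences of Bglap and Bglap2 make the split of reads between them uncertain. Blood cells had a Bglap UMI in 5.49%, 0.575% and 0% of cells (0 of 143, which allows up to 2.10%), against 25.0%, 55.7% and 19.8% of osteogenic cells, so the 2 mo share lies nearest to that background. After thinning to 2000 UMIs the shares were 12.3%, 30.8% and 17.3%. When osteogenic cells were required to carry Lepr, Bglap no longer passed at 2 mo (log2 ratio 0.53).

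Other matrix proteins were higher at every age. Tenascin C (Tnc) was at 3248, 5071 and 3143 CPM against 1349, 664 and 923 CPM, and was found in 108 of 108, 79 of 79 and 80 of 81 cells. Col12a1, a collagen that lies on the surface of fibrils, was at 258, 727 and 298 CPM against 68.3, 57.3 and 59.9 CPM. Omd (osteomodulin) was at 52.5, 157 and 41.4 CPM against 17.2, 21.2 and 11.1 CPM. Col5a2, Slc20a2 and Kazald1 completed the count, and Col5a2 lost its call with TMM factors. Ibsp, which encodes bone sialoprotein, did not separate the groups in 1 direction: it was at 3634, 4238 and 4223 CPM in osteogenic cells and 4573, 2523 and 3102 CPM in the others, with ratios of 0.795, 1.68 and 1.36. Of 8 osteocyte genes 2 were tested, and the list summed to 55.5, 86.8 and 137 CPM in osteogenic cells and 79.2, 253 and 204 CPM in the others. Phex, an osteocyte peptidase gene, was lower, at 20.1, 23.9 and 87.1 CPM against 57.0, 223 and 172 CPM, and the adhesion receptor gene Cd44 was higher, in 16, 24 and 16 cells. Sost, the sclerostin gene of mature osteocytes, had no UMI in any osteogenic cell.

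**Figure D2:**
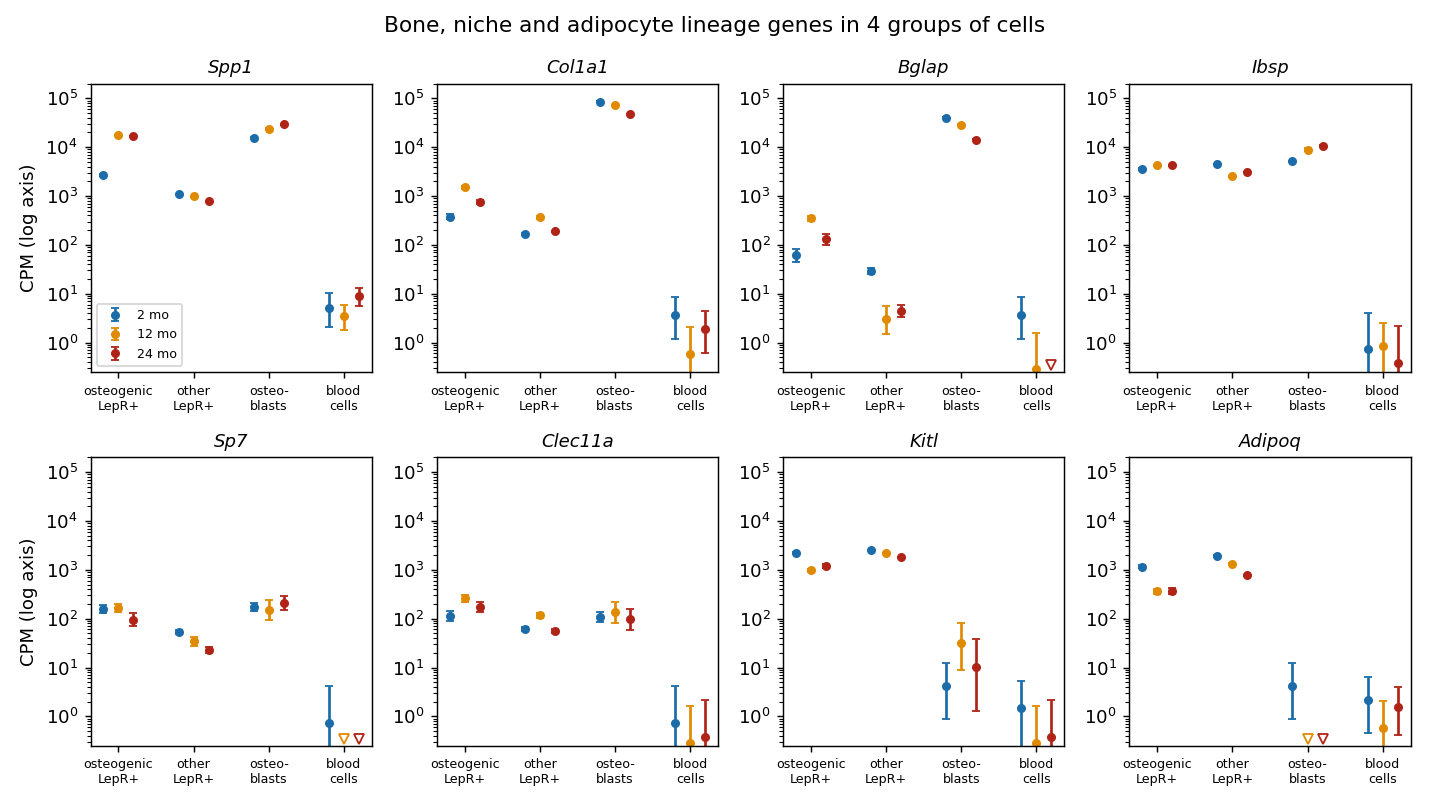
Levels of 8 genes (vertical axes, CPM on a log axis) in osteogenic LepR+ cells, other LepR+ cells, osteoblasts and blood cells of each library. Points are levels from summed UMIs, bars are exact Poisson 95% intervals, and triangles mark 0 UMIs. Col1a1 and Bglap of osteogenic cells lie between the other LepR+ cells and osteoblasts, Sp7 and Clec11a lie near osteoblasts (179 and 110 CPM), and Kitl (973 to 2229 CPM) and Adipoq (364 to 1145 CPM) far above them.

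Osteoblasts had Clec11a at 108, 137 and 98.8 CPM at 2, 12 and 24 mo. In osteogenic cells it was at 113, 260 and 174 CPM, against 62.3, 117 and 55.4 CPM in the other LepR+ cells. Its ratios were 1.81 (1.39 to 2.32), 2.23 (1.85 to 2.68) and 3.14 (2.46 to 3.97). Osteolectin was thus higher in osteogenic cells of each library. Of 8 tested genes of the Osteolectin and mechanosensing list, 2 were higher in all libraries. The other was Ccn2, a matricellular target of YAP and of TGF-beta, at 699, 1755 and 1104 CPM against 175, 424 and 339 CPM.

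Genes of bone signaling pathways were higher singly rather than as whole lists. Of 13 Wnt genes tested, 4 were higher and 2 lower, with list medians of 0.28, 0.45 and 0.41. Wif1, a secreted inhibitor that binds Wnt ligands, was at 762, 1312 and 675 CPM against 135, 143 and 109 CPM and was found in 79.6%, 94.9% and 72.8% of osteogenic cells. Lrp4, a receptor that anchors sclerostin, was at 106, 346 and 187 CPM against 9.76, 32.6 and 26.4 CPM. The ligand gene Wnt5a and the receptor gene Fzd8 were the other higher members. Sfrp4, another secreted inhibitor, went the other way, at 418, 193 and 257 CPM against 1098, 624 and 554 CPM, as did the receptor gene Fzd4. Inhibitors of the pathway were therefore found on both sides.

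Of 25 tested BMP and TGF-beta genes, 2 were higher and 1 was lower. Bmp3, a member of the family that opposes osteogenic BMPs, was at 17.0, 156 and 63.2 CPM against 0.124, 1.85 and 0.945 CPM, with UMIs in 9, 30 and 17 osteogenic cells. Smad6, an inhibitory Smad, was at 71.0, 138 and 58.8 CPM against 36.3, 21.2 and 16.2 CPM. The BMP antagonist gene Chrdl1 was lower, at 472, 138 and 259 CPM against 956, 664 and 559 CPM. Of 18 genes of the PTH, FGF, IGF and PDGF list, 3 were higher and 1 lower. Pth1r, the receptor of parathyroid hormone, was at 309, 540 and 368 CPM against 130, 127 and 86.8 CPM, and osteoblasts had 799 CPM. The FGF receptor gene Fgfr3 and the vitamin D receptor gene Vdr were also higher, the latter at 41.7, 133 and 115 CPM against 9.15, 20.6 and 41.6 CPM.

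Of 7 tested genes listed as acting on osteoclasts, 1 was higher and 2 lower. The higher one, Limch1, is better known as a regulator of actin and non-muscle myosin, and was 4.17-fold (3.86 to 4.51), 4.19-fold (3.88 to 4.53) and 4.42-fold (4.06 to 4.82) as high in osteogenic cells, a ratio that hardly varied among libraries. Tnfsf11, which encodes the osteoclast factor RANKL, was at 92.6, 180 and 91.5 CPM against 39.4, 55.7 and 70.6 CPM, and its 24 mo ratio of 1.30 (0.927 to 1.77) kept it out of the count. Il34, a ligand of the macrophage receptor Csf1r, was lower, as was the chemokine gene Ccl2. Il34 was at 157, 47.9 and 34.8 CPM against 350, 116 and 178 CPM. The other ligand gene, Csf1, was at 401, 527 and 298 CPM against 442, 337 and 294 CPM and passed the fold limit at 12 mo alone.

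Niche factors remained in osteogenic cells, and Kitl was lower than in the other LepR+ cells at 12 and 24 mo. Of 18 tested hematopoietic niche factors, 1 (Lifr) was higher and 1 (Il34) lower in all libraries, against 3.52% and 2.08% of all genes. The list medians were -0.11, -0.49 and -0.17. In the single libraries 2, 3 and 3 were higher and 1, 8 and 4 lower. The list summed to 14909, 9496 and 9925 CPM, against 15375, 11190 and 9951 CPM in the other LepR+ cells. Kitl, which encodes stem cell factor, was at 2229, 973 and 1193 CPM against 2537, 2182 and 1841 CPM, and had a UMI in 107 of 108, 74 of 79 and 73 of 81 cells. Its ratios were 0.879 (0.832 to 0.927), 0.446 (0.411 to 0.483) and 0.648 (0.594 to 0.706), so that the 2 mo value alone was on the near side of the 1.5-fold limit. Osteoblasts had Kitl at 8.82 CPM. Vcam1, an adhesion molecule for blood cells, was at 1612, 720 and 680 CPM against 2011, 952 and 845 CPM, and Il7, a growth factor of lymphoid progenitors, at 179, 71.8 and 93.6 CPM against 165, 107 and 63.4 CPM. Lifr, the receptor of leukemia inhibitory factor, was at 884, 2385 and 1562 CPM against 300, 564 and 540 CPM.

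Transcription factors of LepR+ cells stayed at about the level of the other LepR+ cells, with 0 of 14 higher and 0 lower in all libraries and medians of 0.13, 0.02 and -0.03 (0.01, -0.02 and -0.20 with TMM factors). Foxc1, which niche-forming cells require, was at 646, 552 and 531 CPM against 590, 554 and 552 CPM. Ebf1 was at 1179, 825 and 699 CPM against 1084, 912 and 681 CPM. Ebf3, which keeps the marrow cavity from filling with bone, was at 748, 382 and 427 CPM against 795, 612 and 724 CPM, with a 2 mo ratio of 0.942 (0.857 to 1.03) and lower ones of 0.623 (0.545 to 0.710) and 0.589 (0.509 to 0.679) at 12 and 24 mo. Osteoblasts had it at 3.92 CPM.

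Some genes of the adipocyte lineage were lower. Of 17 tested, none was higher in all libraries and 5 (Adipoq, Pparg, Fabp4, Scd1 and Rarres2) were lower, with medians of -0.24, -0.73 and -1.004. Adipoq, which encodes adiponectin, was at 1145, 364 and 370 CPM against 1958, 1318 and 766 CPM, with ratios of 0.585 (0.543 to 0.629), 0.276 (0.241 to 0.314) and 0.483 (0.413 to 0.563). Pparg, the main regulator of adipogenesis, was at 58.6, 18.0 and 17.4 CPM against 91.1, 64.3 and 34.9 CPM. Lpl, the lipase of adipocytes, was alike at 2 mo (2438 against 2664 CPM) but was at 233 against 1254 CPM at 12 mo and 329 against 1101 CPM at 24 mo. The cells were not without these transcripts: 58 of 108 osteogenic cells at 2 mo, 25 of 79 at 12 mo and 11 of 81 at 24 mo had UMIs of both Adipoq and Spp1. Among osteogenic cells without a Postn UMI, a view added after seeing the data, Adipoq, Pparg and Scd1 lost the call.

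Some guidance and adhesion genes were higher. Of 13 tested, 6 were higher in all libraries and none lower in all, while 1, 2 and 3 were lower in the single libraries, with medians of 0.47, 1.17 and 0.66. Slit2, a secreted guidance cue, was at 110, 458 and 305 CPM against 41.4, 58.8 and 51.1 CPM. Ncam1, a neural cell adhesion molecule, was at 390, 766 and 730 CPM against 97.9, 137 and 95.6 CPM, and Plxna2, a semaphorin receptor, at 403, 516 and 270 CPM against 189, 119 and 77.2 CPM. Cdh15 (M-cadherin) was at 12.3, 77.8 and 63.2 CPM against 1.36, 3.69 and 8.88 CPM. Slit3 and the netrin receptor gene Unc5b completed the count, and Slit3 lost its call with TMM factors.

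Ranked by the weakest of the 3 libraries, the genes that set osteogenic cells apart most were Fat3, Bmp3, Cpe, Col25a1, Cadm1, Ccnd1, Rapsn, Ptgis, Ppfibp2, Tenm4, Ccdc3, Cdh15, Lrp4, Gp9 and Spata13. These are mostly genes of low level that the other LepR+ cells hardly carried. Cpe, a carboxypeptidase of secretory granules, was at 74.1, 211 and 74.0 CPM against 2.22, 2.16 and 1.51 CPM. The adhesion gene Cadm1 was at 71.0, 208 and 74.0 CPM against 4.08, 3.39 and 2.36 CPM, in 27, 40 and 20 osteogenic cells. Ptgis, the prostacyclin synthase, was at 127, 236 and 159 CPM against 13.1, 4.62 and 9.82 CPM. Ccnd1 (cyclin D1) was at 41.7, 187 and 155 CPM against 3.34, 14.5 and 7.37 CPM, and the cell cycle inhibitor gene Cdkn1a was higher as well, at 35.5, 118 and 45.7 CPM against 14, 30.5 and 21.3 CPM. Fat3 and Gp9 rested on few cells: 7, 28 and 8 cells had Fat3, with 18 of its 27 UMIs at 24 mo in 1 cell, and 4, 4 and 2 cells had Gp9, with 39 of 42 UMIs at 12 mo and 18 of 19 at 24 mo in 1 cell.

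The genes lowest against the other LepR+ cells were Prg4, Crym, Slc1a3, Cbln1, Apod, Hbb-bt, Hba-a1, Alas2, Fabp4 and Hbb-bs. Prg4, which encodes the lubricant lubricin, was at 4.63, 32.9 and 10.9 CPM against 44.2, 970 and 161 CPM. Apod (apolipoprotein D) was at 21.6, 5.99 and 8.71 CPM against 103, 178 and 271 CPM, and Cbln1 at 23.1, 2.99 and 21.8 CPM against 146, 111 and 157 CPM. Crym and the glutamate transporter gene Slc1a3 were each under 9 CPM in osteogenic cells of every library. The 4 erythroid genes of this group moved with the few hemoglobin-rich cells among the other LepR+ cells. Without cells of 5% or more hemoglobin UMIs, a view added after seeing the data, none of them stayed lower in all libraries, while Prg4, Crym, Slc1a3, Cbln1, Apod and Fabp4 and the 15 genes of the paragraph above kept their calls.

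Remaining matrix genes were mixed, with 4 of 35 higher and 4 lower. Col8a1, a short-chain collagen, was at 1035, 980 and 684 CPM against 406, 228 and 157 CPM, and Col6a3 at 57.1, 537 and 287 CPM against 14.1, 60.0 and 44.0 CPM. The metalloproteinase genes Mmp2 and Mmp14 were the other higher ones, and Fbln1, Efemp1, Igfbp3 and Adamts1 were lower. Of 22 genes of collagen processing, Plod2, Fkbp10 and Bmp1 were higher and P3h2 lower. Serpinh1, the collagen chaperone, was at 782, 623 and 549 CPM against 660, 507 and 387 CPM and 1740 CPM in osteoblasts.

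A few acute-phase and chemokine genes were lower. Of 15 tested genes of the NF-kB and acute-phase list, 4 (Hp, C3, Saa3 and Ccl2) were lower in all libraries and none higher, 2 others being higher at 12 mo alone, with medians of -0.20, -0.32 and -0.52. Hp, which encodes haptoglobin, was at 4090, 1423 and 1684 CPM against 8624, 7448 and 4932 CPM. Complement C3 was at 37.0, 156 and 84.9 CPM against 130, 935 and 381 CPM. Interferon-regulated genes were not set apart in 1 direction as a list. In all libraries 0 of 46 were higher and 2 (Ifitm1 and Cxcl10) lower, with medians of -0.06, -0.34 and 0.32. The single libraries had 1, 0 and 13 higher at 2, 12 and 24 mo, against 10.2%, 13.3% and 14.3% of all genes tested. They had 7, 17 and 4 lower, against 6.24%, 12.8% and 8.41%. Ly6a (Sca1) and Cxcl9, which mark a subset of aged LepR+ cells, were both present in 0, 0 and 15 osteogenic cells.

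Markers of other cell types were few. Endothelial markers summed to 13.1 to 38.6 CPM in osteogenic cells and 54.8 to 87.1 CPM in the others, with Kdr, Tek, Tie1 and Sox17 (4 of 10) at 0. Schwann cell markers summed to 0 to 7.48 CPM against 5.44 to 10.2 CPM, with 5 of 7 at 0. Fibroblast markers summed to 67.9, 106 and 19.6 CPM against 31.4, 76.7 and 28.3 CPM, with Dpt and Pi16 (2 of 9) at 0. Pericyte markers summed to 310.1, 223 and 139 CPM against 235, 278 and 289.6 CPM, with Cnn1 (1 of 8) at 0. Blood markers summed to 44.7, 207 and 115 CPM against 34.0, 76.7 and 213 CPM, and the one called higher, Plek, had 35 of 39 UMIs at 12 mo and 25 of 27 at 24 mo in 1 cell. Chondrocyte markers summed to 81.8, 162 and 95.8 CPM against 50.8, 46.2 and 42.1 CPM, higher in each library, with Col9a1, Col10a1, Matn3 and Hapln1 (4 of 9) at 0. Within that list Col2a1, the cartilage collagen, was at 6.17, 105 and 76.2 CPM against 3.58, 20.3 and 16.9 CPM and found in 4, 14 and 14 osteogenic cells. The cells taken as osteoblasts had it at 5511 CPM and the whole chondrocyte list at 9429 CPM, so they are not a pure osteoblast reference. Whether free RNA or mixed droplets carried Col2a1 was not tested. Erythroid markers summed to 2779 to 26298 CPM against 10078 to 127150 CPM.

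Several genes of G2 and M phase were lower, and their calls changed without the hemoglobin-rich cells. Of 23 tested genes of G2 and M phase, 6 (Nusap1, Ube2c, Birc5, Top2a, Tubb4b and Cdca8) were lower in osteogenic cells in all libraries. None of the 6 stayed lower in all 3 without cells of 5% or more hemoglobin UMIs. The same held between 3000 and 10000 UMIs per cell, after removal of the top 6% of cells by doublet score, and with the mean of single cells. Without the hemoglobin-rich cells all 6 were still at least 1.5-fold lower at 12 mo, with log2 ratios from -0.76 (Nusap1) to -2.70 (Top2a). At 24 mo Birc5, Ube2c and Nusap1 were lower too (-0.74, -0.74 and -1.50). Mki67, which marks cycling cells, was at 58.6, 15 and 80.6 CPM against 84.7, 49.6 and 127 CPM and was found in 10.2%, 11.4% and 13.6% of osteogenic cells.

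**Figure D3:**
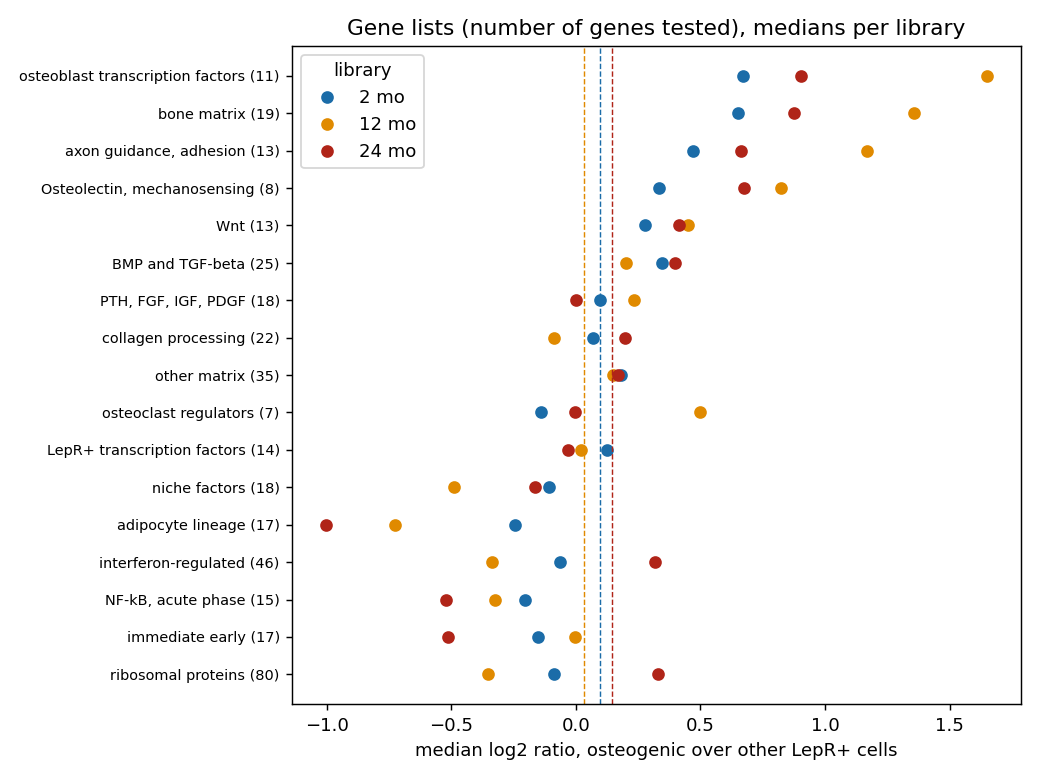
Median log2 ratio of osteogenic over other LepR+ cells (horizontal axis) for 17 gene lists, with the number of genes tested in brackets. Points are the 3 libraries and dashed lines the medians of all genes tested. Bone transcription factors (0.67 to 1.65) and bone matrix (0.65 to 1.36) lie to the right of the all-gene medians of 0.03 to 0.14 in each library, and adipocyte lineage genes (-0.24 to -1.004) to the left.

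Bone genes were higher in cells that carried more of the 5 genes, and Adipoq was lowest in those with 4 or 5. Among all cells with 10 or more UMIs of Cxcl12 and no Cdh5, Spp1 went from 660 CPM in cells with none of the 5 genes to 7818 CPM in cells with all 5 at 2 mo, from 576 to 22708 CPM at 12 mo and from 384 to 55380 CPM at 24 mo. Col1a1 went from 95.7 to 2070 CPM, from 376 to 2277 CPM and from 98.8 to 2041 CPM. Cells with 2 of the 5 genes, just outside the rule, had Wif1 at 273, 368 and 228 CPM and those with 3 had it at 624, 1352 and 449 CPM. The steps are the count that the rule itself uses, so they describe the choice.

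Adipoq stayed at 1257, 1508 and 507 CPM in cells with none of the 5 genes and at 1329, 893 and 557 CPM in those with 3. It was at 394, 118 and 51.6 CPM in cells with 4, and at 0, 6.14 and 0 CPM in those with 5. Lepr and Kitl were also lowest in cells with 5, at 230, 405 and 121 CPM and 537, 565 and 454 CPM. Cells with all 5 numbered only 2, 15 and 8, and median depth differed between the steps (4273.5 to 6809 UMIs at 2 mo, 3991 to 10438 at 12 mo and 4369 to 8034 at 24 mo). The part of depth in these steps was not tested.

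**Figure D4:**
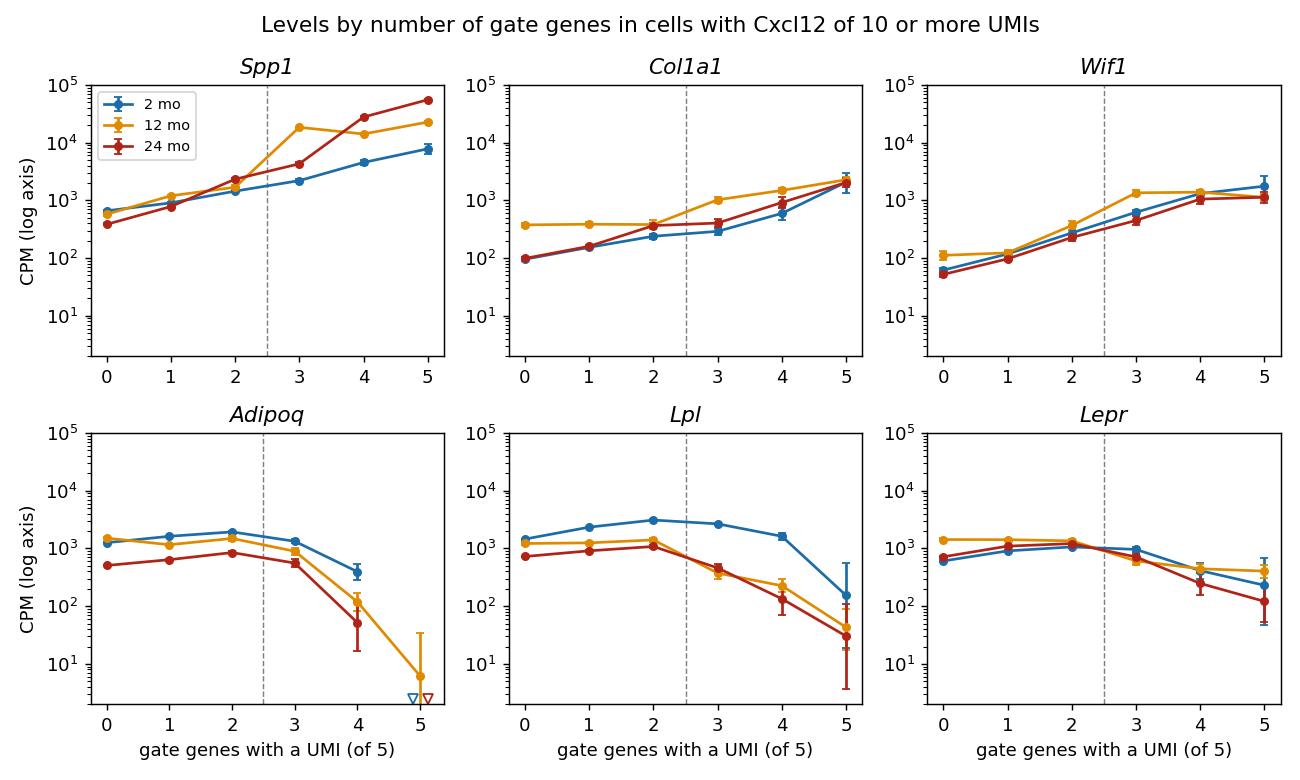
Levels of 6 genes (vertical axes, CPM on a log axis) by how many of Postn, Mmp13, Alpl, Kcnk2 and Slitrk6 a cell carried (horizontal axes), in cells with 10 or more Cxcl12 UMIs and no Cdh5. Lines join the steps of 1 library, bars are exact Poisson 95% intervals, triangles mark 0 UMIs and the dashed line is the limit of the rule. Spp1, Col1a1 and Wif1 climb from left to right in each library apart from dips at 12 mo, and Adipoq is at 51.6 to 394 CPM at 4 genes and 0 to 6.14 CPM at 5.

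Within osteogenic cells, those with Postn had more Spp1 and less Adipoq, although Postn is itself a gene of the rule and only 5 cells had it at 2 mo. Cells with Postn (5, 49 and 32) had Spp1 at 11323, 24217 and 39804 CPM, and cells without it (103, 30 and 49) had 2331, 5272 and 4178 CPM. Col1a1 was at 1591, 1916 and 1467 CPM with Postn and at 325, 749 and 365 CPM without, and Clec11a at 555, 311 and 293 CPM and 93.4, 162 and 110 CPM. Adipoq was at 0, 61.4 and 0 CPM in cells with Postn and at 1195, 946 and 569 CPM in cells without. Lepr was at 111, 386 and 175 CPM with Postn and 887, 696 and 719 CPM without, and Kitl at 1258, 855 and 637 CPM and 2272, 1200 and 1492 CPM. Osteoblasts had Postn at 66.8, 539 and 281 CPM, also lowest at 2 mo. With Postn left out of the rule, 3 of the other 4 genes found 106, 71 and 72 cells.

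Osteogenic cells without a Lepr UMI (17, 6 and 21 cells) had Spp1 at 7601, 46633 and 31727 CPM, and those with Lepr (91, 73 and 60 cells) had 2024, 15511 and 12541 CPM. Cells without Lepr were also shallower, with medians of 4892, 6459.5 and 4007 UMIs against 6411, 8892 and 4963. Spp1 differed between cells with Y-linked UMIs (2600, 17847 and 21610 CPM) and cells with Xist (797, 2797 and 1495 CPM) in each library, with 9, 15 and 12 cells of the latter kind. The other LepR+ cells showed the same order, at 1141, 1304 and 901 CPM with Y-linked UMIs and 227, 104 and 48.0 CPM with Xist. Col8a1 had the opposite order in osteogenic cells, at 911, 932 and 427 CPM with Y-linked UMIs and 3276, 1684 and 1803 CPM with Xist. These are cells of different mice, and sex and animal cannot be told apart.

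Between the 2 and 24 mo libraries, 915 of 7046 genes (13.0%) were at least 1.5-fold higher at 24 mo in osteogenic cells and 1227 (17.4%) were lower, against 257 (3.65%) and 450 (6.39%) in the other LepR+ cells. The 7046 genes were those with a mean of 20 CPM or more over the osteogenic sums alone. A high value in osteogenic cells of 1 library could admit a gene, so the groups are not on equal terms. The summed UMIs of osteogenic cells (648130 and 459157) were far fewer than those of the other cells (8091474 and 10586806), and the part of counting error in these shares was not tested. The median log2 ratio of all genes was -0.09 in osteogenic cells and -0.12 in the others. The 12 mo library differed from the 2 mo library by similar numbers, with 934 genes (13.3%) higher and 1091 (15.5%) lower in osteogenic cells, against 6.59% and 5.10% in the others. From 12 to 24 mo 902 genes (12.8%) were higher and 1186 (16.8%) lower, against 2.91% and 5.92%. With TMM factors the 24 to 2 mo counts became 1006 higher and 995 lower. Ratios to 2 mo share that library.

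Some bone matrix genes were higher at 24 mo in osteogenic cells, and 10 of 19 were lower in the others. Of 19 tested, 6 were higher at 24 than at 2 mo in osteogenic cells and 3 lower (median -0.01), against 13.0% and 17.4% of all genes. The count lower was thus near the share of all genes. In the other LepR+ cells 1 was higher and 10 lower (median -0.61), against 3.65% and 6.39% of all genes. Spp1 had a 24 to 2 mo ratio of 6.14 (5.83 to 6.47) in osteogenic cells and 0.707 (0.687 to 0.729) in the others. Of its 7625 UMIs in osteogenic cells at 24 mo, 1861 lay in 1 cell. The 24 to 2 mo ratios in osteogenic and other cells were 2.12 (1.40 to 3.24) and 0.155 (0.112 to 0.213) for Bglap. For Col1a1 they were 1.98 (1.68 to 2.34) and 1.14 (1.06 to 1.22). At 12 mo, 13 of the 19 were higher than at 2 mo in osteogenic cells and none lower. Sparc, a collagen-binding protein, was among those lower at 24 mo, at 2695, 2105 and 1479 CPM. Of 10 osteoblast transcription factors none was higher at 24 than at 2 mo in osteogenic cells and 2 were lower, near the 13.0% and 17.4% of all genes. In the other LepR+ cells none was higher and 5 were lower. Sp7 was among the 2 lower in osteogenic cells, with a ratio of 0.597 (0.410 to 0.857). Without the deepest osteogenic cell of each library, a view added after seeing the data, 3 of the 10 were higher and 2 lower.

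Spp1 was higher at 24 than at 2 mo in each kind of osteogenic cell looked at. It went from 2331 to 4178 CPM in cells without Postn and from 11323 to 39804 CPM in those with it, of which there were 5 and 32. It went from 797 to 1495 CPM in cells with Xist and from 2600 to 21610 CPM in those with Y-linked UMIs. The sum of the bone matrix list did not rise in both kinds. It went from 20699 to 17597 CPM in osteogenic cells with Xist and from 17154 to 35274 CPM in those with Y-linked UMIs. This difference was not tested.

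Niche and adipocyte genes were lower in the 24 mo library in both groups. Of 18 niche factors, 11 were lower and 3 higher at 24 mo in osteogenic cells (median -0.99), and 10 were lower and 2 higher in the other LepR+ cells (median -0.67). Kitl had a ratio of 0.535 (0.484 to 0.591) in osteogenic cells and 0.726 (0.711 to 0.740) in the others. Igf1, a growth factor of bone and blood cells, was at 474, 223 and 126 CPM in osteogenic cells, a ratio of 0.267 (0.198 to 0.354), and at 314, 190 and 188 CPM in the others. Vcam1 had a ratio of 0.421 (0.370 to 0.479) in osteogenic cells and 0.420 (0.409 to 0.431) in the others. Lifr was higher at 24 mo, with ratios of 1.77 (1.58 to 1.97) and 1.80 (1.71 to 1.88). Of 14 adipocyte lineage genes 9 were lower and none higher (median -0.95), led by Lpl with a ratio of 0.135 (0.113 to 0.160), against 0.413 (0.404 to 0.423) in the other LepR+ cells.

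Interferon-regulated genes were higher at 24 mo in osteogenic cells with Y-linked UMIs. In those with Xist (9 cells at 2 mo and 12 at 24 mo) they were called about as often as all genes. Over all osteogenic cells 33 of 44 were at least 1.5-fold higher than at 2 mo and none lower (median 1.34 on the log2 scale), and in the other LepR+ cells 26 were higher and none lower (median 0.73). The GTPase gene Iigp1 was at 224, 320 and 1305 CPM in osteogenic cells. Isg15, a ubiquitin-like modifier, was at 151, 141 and 396 CPM. Levels at 12 mo were thus close to those at 2 mo. Among osteogenic cells with Y-linked UMIs 35 of 45 genes were higher at 24 mo and 1 lower (median 1.60), and the list summed to 8508, 8843 and 14854 CPM. Of all 7038 genes tested in those cells, 1033 were higher and 1622 lower. Among those with Xist 4 of 40 were higher and 7 lower (median -0.23), with sums of 11164, 11272 and 7874 CPM. Of all 6795 genes tested in cells with Xist, 899 were higher and 1378 lower. The difference between the 2 kinds of cell was not tested. The other LepR+ cells had sums of 9088, 10506 and 12884 CPM with Y-linked UMIs and 13102, 14092 and 9553 CPM with Xist.

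Of the genes with the largest rise in osteogenic cells, Ly6a came first. It had no UMI in 108 cells at 2 mo, was in 3 of 79 cells at 12 mo and in 29 of 81 at 24 mo, at 0, 4.49 and 272 CPM. Its 24 mo level rested on 125 UMIs. In the other LepR+ cells it was at 3.58, 210 and 315 CPM, so the 12 mo level was far lower in osteogenic cells than in the others. After thinning to 2000 UMIs Ly6a was found in 0%, 0% and 30.7% of osteogenic cells and 1.22%, 3.05% and 8.89% of blood cells. All of its 24 mo UMIs in osteogenic cells of known kind lay in cells with Y-linked UMIs (301 CPM), and none in the 12 cells with Xist.

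Snhg11, a noncoding RNA, was next at 4.63, 52.4 and 133 CPM, followed by the matrix gene Fndc1 at 3.09, 22.4 and 82.8 CPM and the engulfment receptor gene Megf10 at 3.09, 23.9 and 65.3 CPM in 1, 13 and 21 cells. Tmem119, which promotes osteoblast differentiation, was at 6.17, 56.9 and 78.4 CPM in osteogenic cells and 1.73, 10.8 and 7.84 CPM in the others. Col2a1 was also in this group, with the values given above. Rsad2 (viperin), an interferon-induced gene, was at 7.71, 4.49 and 91.5 CPM and Mns1 at 4.63, 4.49 and 54.4 CPM. Cxcl13 and Fermt3 rested on single cells, with 13 of 27 and 29 of 41 UMIs at 24 mo in 1 cell.

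The largest declines from 2 to 24 mo were those of Timp4, Rgs5, Il15, Bmp4, Fmod, Lpl, Col11a1, Mmp9, Jun and Tspan12. Timp4, an inhibitor of metalloproteinases, was at 108, 4.49 and 2.18 CPM in osteogenic cells and 126, 23.7 and 18.7 CPM in the others. Bmp4, a bone morphogenetic protein, was at 441, 58.4 and 45.7 CPM against 407, 123 and 60.1 CPM. Il15, a cytokine of natural killer cells, was at 74.1, 22.4 and 6.53 CPM against 95, 26.5 and 20 CPM. These 3 were also lower at 12 mo and in the other LepR+ cells. Col11a1, a fibrillar collagen, was not lower at 12 mo, with 58.6, 58.4 and 8.71 CPM, and Fmod had 24 of its 25 UMIs at 12 mo in 1 cell. Rgs5 was at 80.2, 2.99 and 2.18 CPM in osteogenic cells and 38.1, 22.8 and 45.8 CPM in the others. Mmp9 had 25 of its 38 UMIs at 2 mo in 1 cell.

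Immediate early genes, which respond within minutes to a stimulus or to dissociation, were lower at 24 mo, with 12 of 16 lower and none higher in osteogenic cells (median -1.21, against -0.78 in the others). Jun was at 611, 111 and 95.8 CPM, and Egr1 peaked at 12 mo with 262, 1954 and 113 CPM. The immediate early list summed to 4883, 6807 and 1651 CPM in osteogenic cells with Y-linked UMIs. In those with Xist it summed to 2115, 1670 and 1449 CPM, and the difference was not tested. Of 80 ribosomal protein genes 44 were higher at 24 mo in osteogenic cells and none lower, with a median of 0.59, against 1 higher and a median of 0.22 in the others. Rps24 was at 1591, 1697 and 2553 CPM in osteogenic cells, and 1 cell held 178 of its 1172 UMIs at 24 mo. Without the deepest osteogenic cell of each library, 24 of the 80 were higher and the median was 0.48. Median depth fell from 6295 to 4744 UMIs between these libraries in osteogenic cells, and its part in the ribosomal values was not tested.

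**Figure D5:**
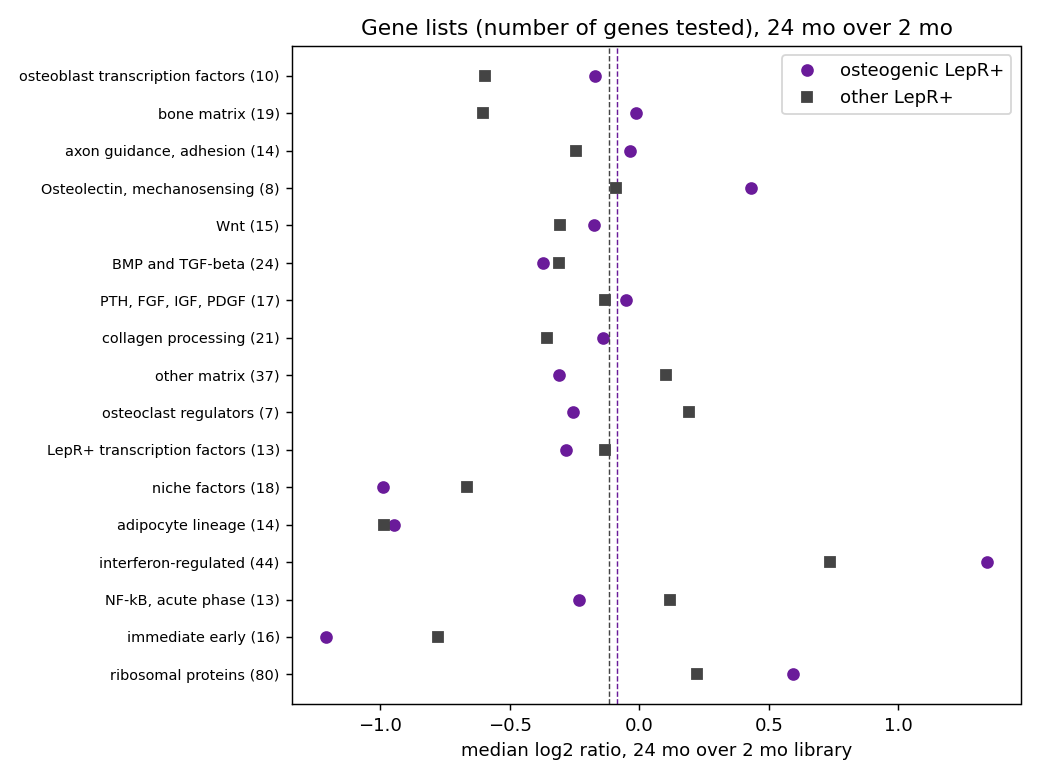
Median log2 ratio of the 24 mo over the 2 mo library (horizontal axis) for 17 gene lists in osteogenic LepR+ cells (circles) and other LepR+ cells (squares), with the number of genes tested in brackets. Dashed lines are the medians of all genes tested (-0.09 and -0.12). Interferon-regulated genes are highest (1.34 and 0.73), immediate early genes are at -1.21 and -0.78, adipocyte lineage genes at -0.95 and -0.99, and bone matrix genes are at -0.01 and -0.61.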

How the data were processed

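Single-cell RNA was measured in 3 libraries of sorted mouse marrow stromal cells. The authors made the deposited UMI counts with Cell Ranger 6.1.2 on mm10 (GRCm38). Later steps named in the notes, in Seurat 4.2.3 under R 4.0.2, did not alter the counts as deposited. A cell was kept if it had 500 to 100000 UMIs, 200 to 10000 genes and a mitochondrial share under 7.5% (7533, 6821 and 9727 of 9240, 9079 and 12420 barcodes). The members and gene lists were chosen with earlier results of these data known. Counts were summed per group and library and scaled to CPM, with the 5 genes of the rule, Cxcl12, Lepr and Cdh5 (8 genes) left out of the totals. Genes with a mean of 20 CPM or more over the 6 sums were compared. A gene was called where it differed 1.5-fold or more in all 3 libraries, with a floor of 3 counts on the lower side. Age ratios compared single libraries, and genes were counted by age if their mean was 20 CPM or more over the 3 osteogenic sums. Osteoblasts had at least 3 UMIs of Ibsp and of Bglap and fewer than 10 of Cxcl12 (35, 16 and 14 cells), and blood cells had Ptprc and no Cxcl12, Lepr or Cdh5 (91, 174 and 143 cells). An osteoblast level given as a single value pools the 3 libraries.

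Genes named were those of the rule, Cxcl12, Lepr, Spp1 and Clec11a, the 15 highest and 10 lowest against the other LepR+ cells by the weakest library, the 10 highest and 10 lowest by age with 30 or more UMIs (without Xist, Y-linked, mitochondrial and hemoglobin genes), and up to 6 genes of each list by level, with others that a list's sentence needed. Doublets were kept, and Scrublet scores in scanpy 1.11.5 served as an alternative. With 1 library per age no test across samples could be made. The calling step was checked on simulated counts with counting error alone, which does not cover the spread among cells. Python 3.11.15, numpy 2.4.6, pandas 2.3.3, scipy 1.17.1, matplotlib 3.10.9, R 4.3.3 and edgeR 4.0.16 (TMM factors only) were used.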

Additional observations from a re-analysis of the deposited data

Results flagged for a closer look

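For 5 genes the 24 to 2 mo ratio passed the 1.5-fold limit in opposite directions in the osteogenic and the other LepR+ cells, and the difference was not tested. Bglap had a ratio of 2.12 in osteogenic cells and 0.155 in the others, and its near-identical neighbor Bglap2 had ratios of 3.01 and 0.137. Fat3, with 18 of its 27 UMIs at 24 mo in 1 osteogenic cell, had 2.24 and 0.382. Fn1, which encodes fibronectin, had 0.450 in osteogenic cells (72.5, 157 and 32.7 CPM) and 10.5 in the others (7.04, 13.2 and 73.9 CPM). Ier3, a stress-response gene, had 0.529 (61.7, 94.3 and 32.7 CPM) and 1.57 (42.9, 155 and 67.5 CPM).

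The share of osteogenic cells from 2 to 12 mo went opposite ways by kind of cell, with a ratio of 2.98 among cells with Y-linked UMIs and 0.8 among cells with Xist, and this difference was not tested either.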

How the results depend on the processing

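No paired analysis was possible because each age was a single library. The share of osteogenic cells at 2, 12 and 24 mo was 19.0%, 21.1% and 13.0% with 2 or more of the 5 genes and 1.04%, 7.07% and 1.25% with 4 or more. It was 7.34%, 21.9% and 4.75% in cells with Y-linked UMIs, 7.44%, 5.95% and 7.14% in cells with Xist, 2.60%, 8.08% and 2.17% after thinning to 2000 UMIs, 4.68% at 2 mo and 2.65% at 24 mo after thinning to 4000, 7.22% at 2 mo in cells of 3000 to 10000 UMIs and 2.88% at 24 mo with Lepr required. Genes higher and lower than in the other LepR+ cells, then higher and lower at 24 mo, numbered 123, 43, 544 and 536 with 2 or more of the 5 genes, 483, 245, 1991 and 2064 with no filter on low values, and 116, 59, 371 and 421 at a fold limit of 2. With 4 or more of the 5 genes 246 were lower, and 2242 were lower at 24 mo. Among osteogenic cells without Postn, an alternative chosen after seeing the data, 83 were lower. Leaving out 1 library, with calls in the other 2, gave 342 to 396 higher (396 without 2 mo) and 183 to 279 lower (279 without 2 mo, 261 without 24 mo). Of the genes called higher, 113 remained so with 2 or more of the 5 genes, 174 at 3000 to 10000 UMIs and 193 with TMM factors. The causes were not tested. With 1 library per age, mouse, sex and age cannot be told apart, and osteogenic cells hold few UMIs per library.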
